A study of Gossypium hirsutum with 17 samples.

Results

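The transcripts described here are those of alpha-expansins in whole seedlings of upland cotton (Gossypium hirsutum), read by 5 probe sets of the Affymetrix Cotton Genome Array that the platform annotation names as alpha-expansins. They were 5 of 24029 probe sets tested and represented 3 genes. Ghi.2039.1.S1_x_at belonged to LOC107914543, known as EXPA1 and EXPA2. Ghi.687.1.S1_at belonged to LOC107885990, known as EXPA11A. Ghi.704.1.A1_s_at, Ghi.704.1.S1_at and GhiAffx.26845.1.S1_at all belonged to LOC107891056, known as EXPA13D and EXPA4, so these 3 are not independent transcripts. Probe sets ending in _x_at or _s_at can hold probes that also match related sequences, so that homologous copies of the A and D subgenomes were not separated.

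Seedlings germinated for 4 days on half-strength medium and were then grown on stress medium for 10 days, so that every sample was harvested at 14 days. The stress medium held 1 μM ABA, 200 mM mannitol as a drought treatment or 200 mM NaCl as a salinity treatment, each at pH 5.8. For the alkalinity treatment it was set to pH 11. Cold seedlings, on medium of pH 5.8, spent 8 days at 25°C and then 2 days at 4°C. Control seedlings received no stress, and no pH is given for their medium. The pH condition had 2 arrays and each of the others, control included, had 3, which made 17. Whole seedlings were the source, so a fall in a transcript can come from fewer cells of a type or from less RNA per cell, and these cannot be told apart.

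Expansins are wall proteins that let cellulose and xyloglucan slip past each other, so that a cell under turgor can enlarge without its wall polymers being cut. They act best in an acid wall, which is the basis of acid growth. Alpha-expansins form the larger of the main expansin families in dicots, and in cotton EXPA1 is best known from elongating seed fibers.

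The deposited signals had different scales. The 2% trimmed mean of the signals was 500.1 in the 8 ABA, mannitol and pH arrays, and 18.5 to 140 in the 9 arrays of control, cold and NaCl. All values below are therefore log2 signals after quantile normalization, which gives each array the same distribution, with a median of 6.04 over all arrays and probe sets. In comparisons of ABA, mannitol or pH with control, cold or NaCl, array scale and stress cannot be told apart. As a measure of RNA integrity, the log2 ratio of the 3′ to the 5′ actin control probes was 2.78 to 3.05 in control and 2.85 to 3.97 in mannitol. It reached 4.46 to 5.31 in ABA and 4.45 to 4.46 in pH, and spread from 2.69 to 7.22 in cold and from 2.70 to 4.79 in NaCl. Cold replicate 3 had the highest ratio. NaCl replicate 1 had the lowest signal, and NaCl replicate 2 was closest to cold replicate 2 (r 0.941 across probe sets). The labels call the arrays biological replicates. The methods state that RNA was pooled for each treatment, and also that the experiment was repeated as a check of reproducibility. What an array stands for is therefore not settled, and p-values describe the spread between arrays, which may be technical.

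Each stress was compared with control by limma, in 1 fit to all arrays, and a probe set was called where the fold reached 2 and the p-value, adjusted by the Benjamini-Hochberg method, was 0.05 or lower. No alpha-expansin probe set was called higher than control in any stress. In cold, 3 of the 5 fell, where 11.1% of all probe sets were called and 5.48% fell. In pH, 3 of the 5 fell, where 22.1% of all were called and 10.4% fell. In ABA, 1 of 5 fell (22.1% of all called, 10.3% fell), and in mannitol 1 of 5 fell (22.8% called, 10.9% fell). In NaCl 0 of 5 were called (0.695% of all called, 0.229% fell). By a fold of at least 2 and an unadjusted limma p under 0.05, 2 of the 5 passed, as did 2026 of all 24029. Arrays that did not overlap with control were common: this was so for 36.6% of all probe sets in cold, 61.3% in pH, 57.1% in mannitol, 53.5% in ABA and 15.1% in NaCl. A lack of overlap is therefore given below as a description only.

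**Figure D1:**
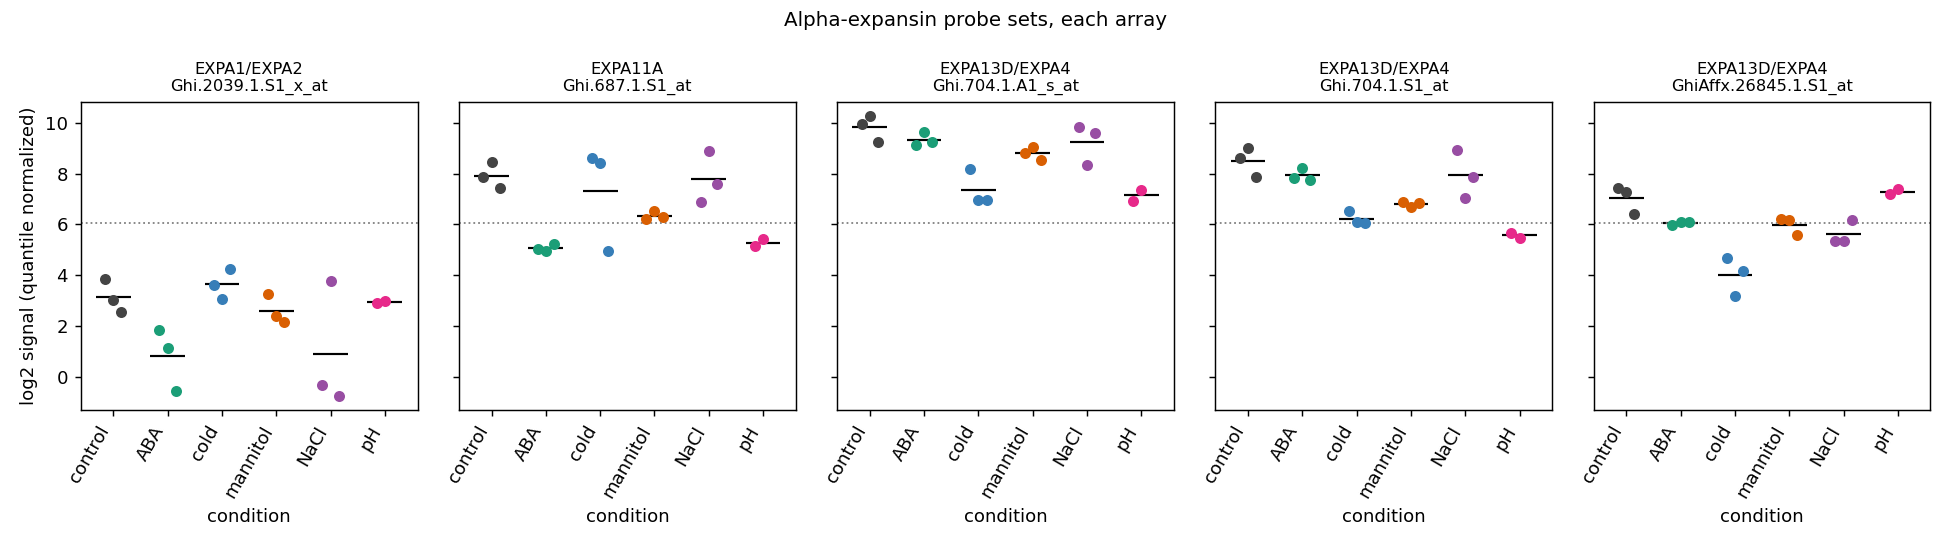
Quantile-normalized log2 signal (vertical axis) of each alpha-expansin probe set in each array, by condition. Each point is 1 array, the horizontal bars are condition means, and the dotted line is the median of all probe sets, 6.04. Cold arrays lay below control in all 3 probe sets of EXPA13D/EXPA4, while pH arrays lay below control in Ghi.704.1.A1_s_at and Ghi.704.1.S1_at but not in GhiAffx.26845.1.S1_at.

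EXPA13D/EXPA4 fell in cold at every probe set that measures it. Ghi.704.1.A1_s_at read 9.96, 10.27 and 9.22 in the control arrays and 8.19, 6.95 and 6.94 in the cold arrays. The groups did not overlap, and the transcript was 5.49-fold lower in cold. On the log2 scale it fell by 2.46 (SE 0.430, limma adjusted p = 0.00586). Ghi.704.1.S1_at read 8.60, 8.99 and 7.87 in control and 6.52, 6.10 and 6.05 in cold. It fell by 2.27 (SE 0.401, adjusted p = 0.00605). GhiAffx.26845.1.S1_at read 7.43, 7.27 and 6.42 in control and 4.68, 3.17 and 4.14 in cold, below every array of every other condition. It fell by 3.04, or 8.24-fold (SE 0.382, adjusted p = 0.00173). Its cold readings lay low, between the 15.7th and the 32.2nd percentile of the probe sets of each array, which limits this fold. Over the alternatives other than leaving out 1 array, its difference ranged from -3.51 to -1.75. The cold calls of all 3 probe sets held when any single array was left out. When limma was fitted to the arrays of control, NaCl and cold alone, the differences were -2.97 to -2.35. Their adjusted p-values were 0.0693 to 0.0997, so they were not called. Of all 24029 probe sets, that fit called 2 in cold against control. Without normalization the fall of Ghi.704.1.A1_s_at was also not called (adjusted p = 0.0511).

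In pH the probe sets of EXPA13D/EXPA4 went different ways. Ghi.704.1.A1_s_at read 6.92 and 7.37 in pH, below every control array. It fell by 2.67 (SE 0.481, limma adjusted p = 0.00174). Ghi.704.1.S1_at read 5.67 and 5.46, its lowest values among all conditions, and fell by 2.92, or 7.58-fold (SE 0.448, adjusted p = 0.000638). Both calls held without any single array. GhiAffx.26845.1.S1_at read 7.18 and 7.39 in pH, inside the control range, and its difference was 0.24 (95% confidence interval -0.68 to 1.16, adjusted p = 0.720). On the deposited scale, where the median difference of all probe sets was 2.11, the differences of Ghi.704.1.A1_s_at and Ghi.704.1.S1_at were -0.46 and -0.73 and not called, and that of GhiAffx.26845.1.S1_at was 2.49 and called (adjusted p = 0.0162).

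**Figure D2:**
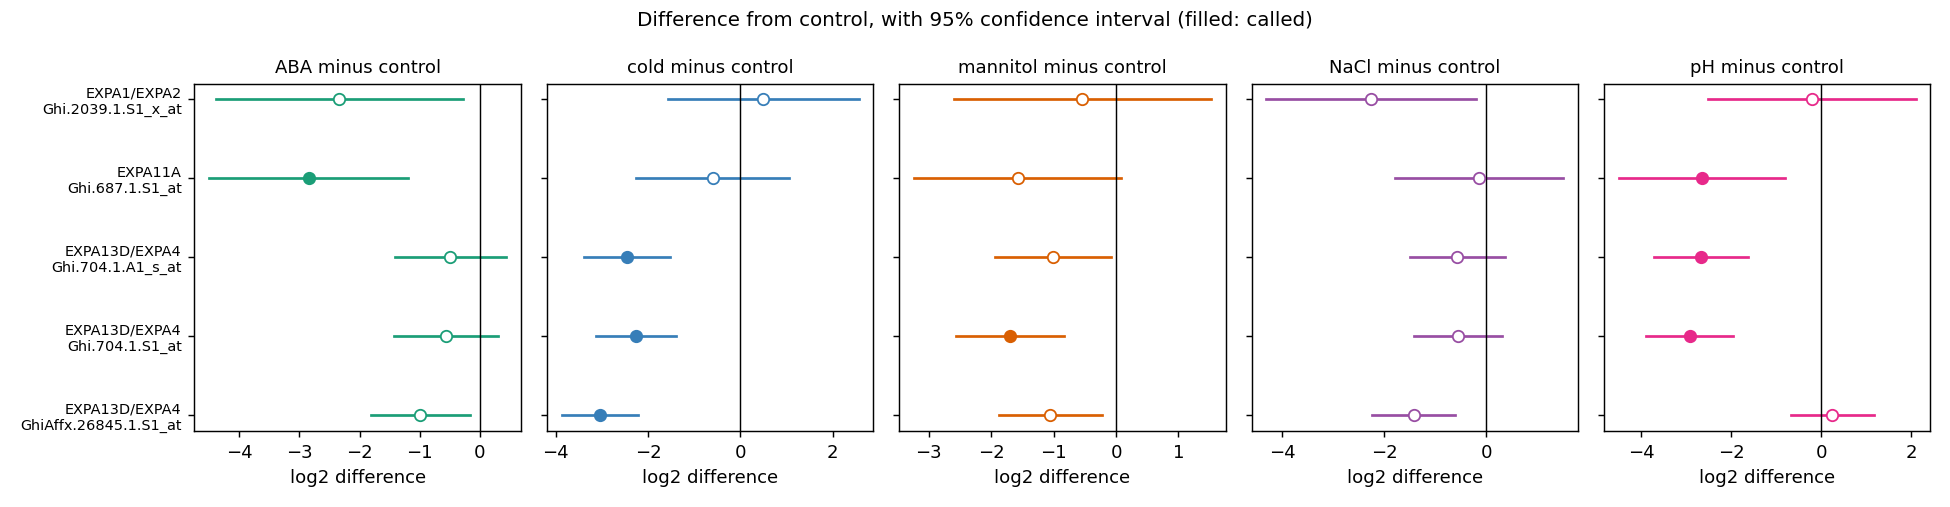
Log2 difference from control (horizontal axis) for each probe set in each stress, with 95% confidence intervals from limma. Filled points passed the fold and adjusted p thresholds. The filled points are all on the negative side, from -1.70 for Ghi.704.1.S1_at in mannitol to -3.04 for GhiAffx.26845.1.S1_at in cold.

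The ratio of 2 probe sets of a gene within an array does not depend on how the array was scaled, so it was taken from the deposited signals. The log2 ratio of GhiAffx.26845.1.S1_at to Ghi.704.1.A1_s_at was 0.24 and 0.02 in the pH arrays. In the other 15 arrays it ranged from -4.38, in a NaCl array, to -2.44, in a mannitol array, so the pH arrays stood apart from all of them. The log2 ratio of GhiAffx.26845.1.S1_at to Ghi.704.1.S1_at was 1.44 and 2.08 in pH and -3.32 to -0.48 elsewhere. The ratio of Ghi.704.1.S1_at to Ghi.704.1.A1_s_at did not set pH apart, at -1.20 and -2.06 in pH and -1.40 to -1.33 in control.

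The difference between the changes of each pair of probe sets was tested as an added row of the limma fit on quantile-normalized values, a test chosen after these values were seen. From control to pH, GhiAffx.26845.1.S1_at changed by 2.92 more than Ghi.704.1.A1_s_at (SE 0.392, adjusted p = 0.000286) and by 3.16 more than Ghi.704.1.S1_at (SE 0.515, adjusted p = 0.000922). Among the 15 tests of 3 pairs in 5 stresses, these alone had an adjusted p of at most 0.05, and both stayed below it without any single array. Against ABA and mannitol, whose arrays share the deposited scale of pH, the first difference was 3.42 (adjusted p = 0.000934) and 2.96 (adjusted p = 0.00330). The second was 3.59 against ABA (adjusted p = 0.00272) and 2.52 against mannitol (adjusted p = 0.0488), and this last one rose above 0.05 in 13 of 17 fits that left out an array. The actin log2 ratio was 4.45 to 4.46 in the pH arrays and 2.78 to 3.05 in control, and its part in these differences was not tested.

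**Figure D3:**
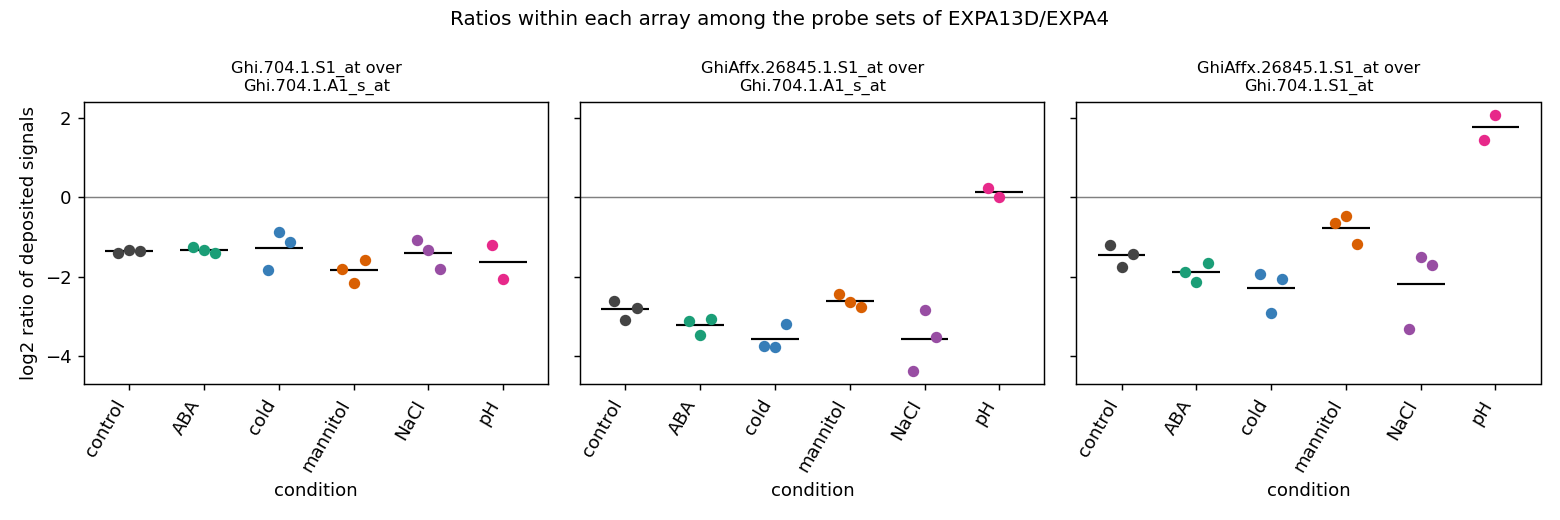
Log2 ratio of deposited signals within each array (vertical axis) for the pairs of probe sets of EXPA13D/EXPA4, by condition. Points are arrays and bars are condition means. The 2 pH arrays lie above all others in the middle and right panels, at 0.02 to 0.24 and 1.44 to 2.08, and among the others in the left panel.

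Across the 17 arrays, Ghi.704.1.A1_s_at and Ghi.704.1.S1_at correlated with r 0.933, and with r 0.800 after condition means were removed. GhiAffx.26845.1.S1_at correlated with them at r 0.435 and 0.282, and at 0.655 and 0.277 after condition means were removed. These values are descriptions over arrays that share conditions and normalization.

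In mannitol, EXPA13D/EXPA4 was called at 1 of its 3 probe sets. Ghi.704.1.S1_at read 6.87, 6.67 and 6.82, below all control arrays, and fell by 1.70, or 3.25-fold (SE 0.401, limma adjusted p = 0.00717), in every fit that left out an array. Ghi.704.1.A1_s_at, at 8.82, 9.05 and 8.55, was also below all control arrays, with a difference of -1.01 (adjusted p = 0.0989). GhiAffx.26845.1.S1_at read 6.19, 6.18 and 5.59, with a difference of -1.05 (adjusted p = 0.0559). On the deposited scale without normalization, the difference of Ghi.704.1.S1_at turned to 0.62, in a comparison where the median of all probe sets was 2.19.

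ABA and NaCl gave no call at EXPA13D/EXPA4. In ABA, Ghi.704.1.A1_s_at read 9.14, 9.63 and 9.23 and Ghi.704.1.S1_at read 7.80, 8.20 and 7.76. The differences from control were -0.49 (95% confidence interval -1.41 to 0.44) and -0.56 (-1.43 to 0.30), and in both the arrays overlapped with control. On the deposited scale they were 1.59 and 1.63 and called, in a comparison where the median of all probe sets was 2.09. GhiAffx.26845.1.S1_at read 5.96, 6.10 and 6.09 in ABA, below control, with a difference of -0.99 (limma adjusted p = 0.0715). In NaCl it read 5.34, 5.35 and 6.15, with a difference of -1.42 (adjusted p = 0.107). Ghi.704.1.A1_s_at read 9.84, 8.35 and 9.58 in NaCl and Ghi.704.1.S1_at read 8.92, 7.02 and 7.85, in each case with NaCl replicate 2 lowest. The differences from control were -0.56 (-1.49 to 0.36) and -0.56 (-1.42 to 0.31).

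EXPA11A fell in ABA and pH. Ghi.687.1.S1_at read 7.87, 8.45 and 7.44 in control, 5.03, 4.97 and 5.23 in ABA and 5.13 and 5.41 in pH. Neither stress overlapped with control. In ABA it fell by 2.85, or 7.19-fold (SE 0.768, limma adjusted p = 0.0157). In pH it fell by 2.65, or 6.27-fold (SE 0.859, adjusted p = 0.0383). The ABA call was lost without control replicate 2 or without ABA replicate 2, with adjusted p up to 0.0573. The pH call was lost in 10 of 17 fits that left out an array, with adjusted p up to 0.164, and when the arrays were scaled by their 2% trimmed mean (-2.52, adjusted p = 0.0866). In mannitol it read 6.21, 6.52 and 6.29, between control and ABA, with a difference of -1.58 (adjusted p = 0.146). This passed the threshold without cold replicate 3, at an adjusted p of 0.0132. On the deposited scale the differences were -0.71 in ABA and -0.46 in pH, and neither was called.

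In cold, EXPA11A was high in replicates 1 and 2 (8.60 and 8.43) and low in replicate 3 (4.94), the array with an actin log2 ratio of 7.22. The part of RNA integrity in this value was not tested. The difference from control was -0.59 with all arrays and 0.59 without replicate 3, and neither passed. In NaCl, Ghi.687.1.S1_at read 6.86, 8.89 and 7.59 and overlapped with control, with a difference of -0.14 (95% confidence interval -1.80 to 1.52).

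EXPA1/EXPA2 read low, between the 2.10th and the 26.9th percentile of the probe sets of each array. Ghi.2039.1.S1_x_at read 3.84, 3.01 and 2.56 in control, and no stress was called against control. In ABA it read 1.82, 1.14 and -0.55, below all control arrays, with a difference of -2.34 (SE 0.955, limma adjusted p = 0.0872). In NaCl it read -0.34, 3.76 and -0.77, with replicate 2 inside the control range and the other two below it. The difference of -2.26 (adjusted p = 0.294) became -3.70 and passed at an adjusted p of 0.00936 without NaCl replicate 2. Readings in cold were 3.61, 3.06 and 4.24, in mannitol 3.26, 2.39 and 2.14, and in pH 2.89 and 2.98. The differences there were 0.50 (95% confidence interval -1.56 to 2.56), -0.54 (-2.60 to 1.52) and -0.21 (-2.51 to 2.10).

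Direct comparisons between stresses follow. Those of ABA, mannitol or pH with cold or NaCl cross the array scales, so scale and stress cannot be told apart in them. Between cold and ABA, all 5 probe sets were called, where 21.3% of all probe sets were. The probe sets of EXPA13D/EXPA4 were lower in cold than in ABA, with log2 differences of -1.97 for Ghi.704.1.A1_s_at (limma adjusted p = 0.00540), -1.70 for Ghi.704.1.S1_at (adjusted p = 0.00790) and -2.05 for GhiAffx.26845.1.S1_at (adjusted p = 0.00216). EXPA11A was 2.25 higher in cold than in ABA (adjusted p = 0.0457) and EXPA1/EXPA2 was 2.83 higher (adjusted p = 0.0434), but these calls were lost in 14 and 13 of 17 fits that left out an array, whereas those of EXPA13D/EXPA4 were kept in all. With scaling by the 2% trimmed mean, both were lost as well, at 1.88 for EXPA11A (adjusted p = 0.136) and 2.41 for EXPA1/EXPA2 (adjusted p = 0.0711). EXPA11A was also 2.71 higher in NaCl than in ABA (adjusted p = 0.0206), the 1 call among the 5 there (21.6% of all), lost without ABA replicate 1, ABA replicate 2 or NaCl replicate 2 and with trimmed mean scaling (2.55, adjusted p = 0.0528).

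In the fit to all arrays, the calls between pH and other stresses were all at EXPA13D/EXPA4, which has most of the probe sets. EXPA11A was not called, with differences of -2.51 against NaCl (limma adjusted p = 0.0530) and -2.05 against cold (adjusted p = 0.108). The first passed the threshold without cold replicate 1, cold replicate 2, cold replicate 3 or NaCl replicate 1, and the second without cold replicate 3. Against ABA, where 4.02% of all probe sets were called, Ghi.704.1.A1_s_at was -2.19 (limma adjusted p = 0.0235) and Ghi.704.1.S1_at -2.36 (adjusted p = 0.0110). Both calls were lost without either pH array, and the first also without ABA replicate 1 or 2 and with median centring (-2.09, adjusted p = 0.0554). On the deposited scale, which ABA and pH arrays share, neither was called (-2.04, adjusted p = 0.662, and -2.36, adjusted p = 0.331). Against NaCl (19.2% of all), the same probe sets were -2.11 (adjusted p = 0.00838) and -2.37 (adjusted p = 0.00308), while GhiAffx.26845.1.S1_at was 1.67 higher in pH (adjusted p = 0.0152). The rise was lost without either pH array and without the set of NaCl replicates 1 and 2 and cold replicate 3 (1.13, adjusted p = 0.183), and the fall of Ghi.704.1.A1_s_at without pH replicate 1. Against cold (18.5% of all), GhiAffx.26845.1.S1_at was 3.29 higher in pH, or 9.75-fold (adjusted p = 0.000368), and the other 4 were not called. This call was kept in every fit that left out an array, and the low cold readings limit its fold.

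In mannitol against cold (19.4% of all), Ghi.704.1.A1_s_at was 1.45 higher (limma adjusted p = 0.0279), a call lost without cold replicate 2 or 3 or any mannitol array and with median centring (1.09, adjusted p = 0.0995), and GhiAffx.26845.1.S1_at was 1.99 higher (adjusted p = 0.00282), a call kept without any single array. In the fit to all arrays, no alpha-expansin probe set was called between mannitol and ABA (3.51% of all) or NaCl and cold (0.308%). None was called between NaCl and mannitol (21.3%) or pH and mannitol (0.562%). A fit to the ABA, mannitol and pH arrays alone called 561 probe sets between pH and mannitol. Among them, Ghi.687.1.S1_at, Ghi.704.1.A1_s_at and Ghi.704.1.S1_at were lower in pH and GhiAffx.26845.1.S1_at was higher. That fit also called Ghi.687.1.S1_at higher and Ghi.704.1.S1_at lower in mannitol than in ABA (1893 of all). Between pH and ABA (2191 of all), it kept the lower calls of Ghi.704.1.A1_s_at and Ghi.704.1.S1_at in pH. There it also called GhiAffx.26845.1.S1_at higher in pH, which the fit to all arrays did not (1.23, limma adjusted p = 0.131). Trimmed mean scaling called the 3 probe sets of EXPA13D/EXPA4 higher in NaCl than in cold (633 of all).

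By condition mean, Ghi.704.1.A1_s_at ran from control through ABA, NaCl, mannitol and cold to pH, and Ghi.704.1.S1_at from control through NaCl, ABA, mannitol and cold to pH. GhiAffx.26845.1.S1_at ran from pH through control, ABA, mannitol and NaCl to cold. EXPA11A ran from control through NaCl, cold, mannitol and pH to ABA, and EXPA1/EXPA2 from cold through control, pH, mannitol and NaCl to ABA. Of all neighbours in these orders, mannitol and cold differed for Ghi.704.1.A1_s_at. No other adjacent conditions were called apart in the fit to all arrays.

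Matching by gene synonym found 1 further alpha-expansin gene, EXPA3D, read by Ghi.249.1.A1_at and GhiAffx.40054.1.S1_at. Its Ghi.249.1.A1_at signal was 10.90, 11.87 and 10.91 in control, 9.09, 9.13 and 8.37 in mannitol, and 11.14, 10.55 and 9.17 in cold. Both probe sets fell in ABA (log2 differences -1.67 and -1.94), mannitol (-2.36 and -3.29) and pH (-2.32 and -3.35), with limma adjusted p-values of at most 0.0242. Before normalization, the deposited linear signals in ABA overlapped with control at both (1454 to 1994 against 1108 to 2329, and 2052 to 2814 against 1810 to 3094). Those in mannitol and pH overlapped with control at Ghi.249.1.A1_at and lay below it at GhiAffx.40054.1.S1_at. In cold their differences were -0.94 and -1.01 and were not called (limma adjusted p = 0.225 and 0.0588). GhiAffx.40054.1.S1_at read 11.39, 11.04 and 10.26 in cold, below its control readings of 11.88, 12.26 and 11.57. Whether the change in cold differed between EXPA3D and EXPA13D/EXPA4 was not tested.

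Other wall and growth transcripts were counted by lists drawn from the annotation. It names 743 probe sets, and the lists were matched to gene synonyms, which 324 of these have. The list counts are to be read against the 22.1% of all probe sets called in ABA, 22.8% in mannitol, 22.1% in pH and 11.1% in cold. Some lists hold several probe sets of the same gene, which are not independent. The 5 probe sets for xyloglucan endotransglucosylase/hydrolases, which cut and rejoin xyloglucan, stand for 3 genes. Of these probe sets, 4 fell in ABA and 2 in mannitol and none was called in the other stresses. XTH3 (GhiAffx.7659.1.S1_a_at) fell by 2.55 in ABA (limma adjusted p = 0.00161). The median of the list in ABA was -2.16, against -0.03 over all probe sets. The 19 probe sets for fasciclin-like arabinogalactan proteins, which are cell surface proteoglycans, stand for 12 genes. Of these probe sets, 9 fell in ABA and 7 in pH, and in mannitol 4 fell and 1 rose. FLA4 (Ghi.68.1.A1_s_at) fell by 2.89 in ABA (adjusted p = 0.000519) and FLA13 (Ghi.9666.1.S1_at) by 3.05 in pH (adjusted p = 0.000248). The 5 called of 19 in mannitol are near the share over all probe sets and are no result about the list. The list medians were -1.32 in ABA, -0.66 in mannitol and -1.07 in pH. In cold and NaCl no probe set of either list was called.

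Of 11 probe sets for gibberellin and auxin genes, 4 rose and 1 fell in ABA, 4 rose and 1 fell in cold, 3 rose in mannitol, and 1 rose and 1 fell in pH. All the rises were probe sets of Aux4, and the falls were those of GAI2, a DELLA-type repressor of gibberellin responses by its name. Of 8 tubulin probe sets, 1 rose and 1 fell in ABA and 1 fell in pH, and of 5 actin probe sets 1 fell in ABA, shares near or below those over all probe sets. The 3 probe sets for pectin enzymes, 2 for a cellulose synthase, 1 for an endoglucanase and 1 for an aquaporin gave no call in any stress. These lists hold only genes matched by name. The paper lists pectinesterase 3 and a cellulose synthase as repressed in all 5 stresses. The pectinesterase probe set that it names lies outside the pectin list here.

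**Figure D4:**
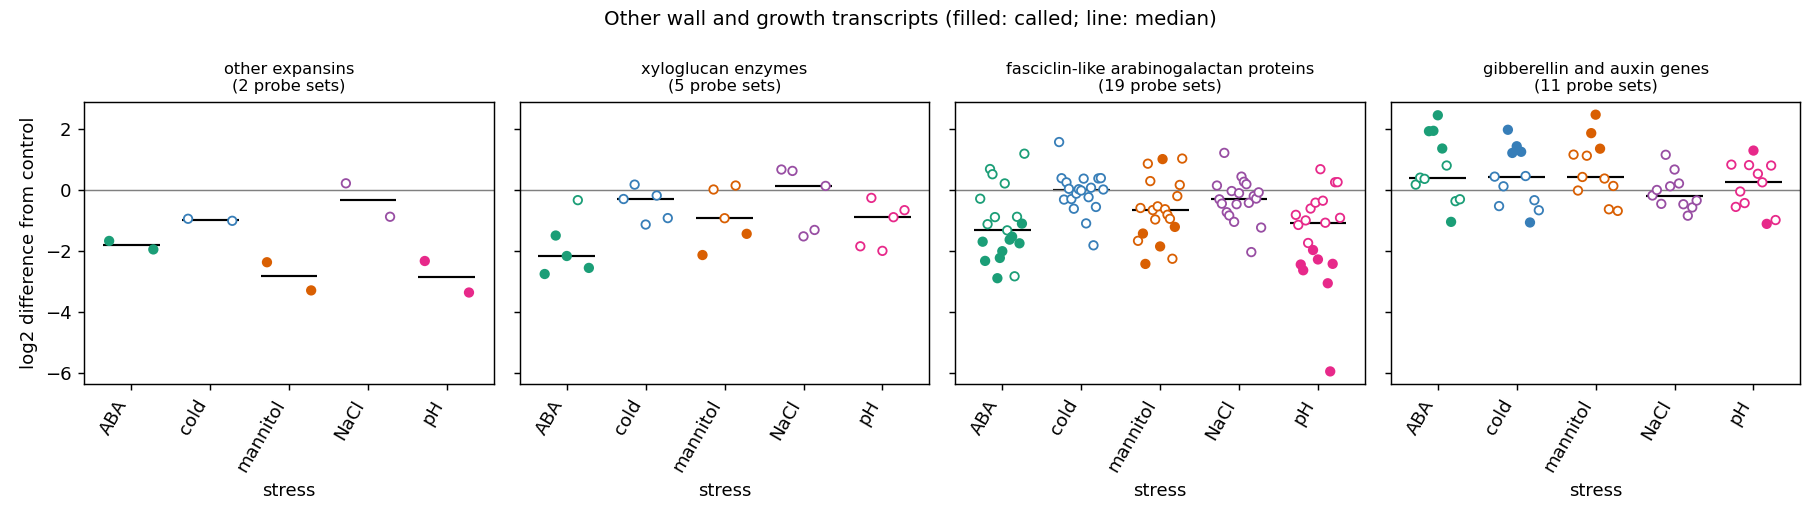
Log2 difference from control (vertical axis) of each probe set in 4 lists, by stress. Filled points were called and bars are list medians. EXPA3D points lie below 0 in ABA, mannitol and pH, 4 of the 5 xyloglucan enzyme points are filled in ABA, and none of the points of either list is filled in cold.

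For each probe set, the annotated transcripts with the most similar pattern over the 17 arrays were sought among 498 to 500 probe sets above the median signal. They were AOX1, an alternative oxidase (r 0.862), for EXPA1/EXPA2 and SMT2-2, a sterol methyltransferase (r 0.942), for EXPA11A. FLA11 was also among the nearest to EXPA11A (r 0.873). ARF1 (r 0.842) and ANT1 (r 0.824) were nearest to Ghi.704.1.A1_s_at and ANT1 (r 0.891) and CBP2 (r 0.883) to Ghi.704.1.S1_at. GhiAffx.26845.1.S1_at had none of these among its nearest 5, which were led by LOC107914107 (r 0.854) and KT (r 0.813).

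Markers of other tissue were examined beside these results. The summed normalized signal of 6 seed probe sets was 4982 to 5438 in control and higher in every array of cold (8855 to 9822), ABA (10116 to 16029), pH (10372 to 10877) and mannitol (10155 to 11123), while NaCl ranged from 2909 to 10160. Between 98.2% and 99.9% of the sum in each array came from Lea5-D and Lea14-A, which encode late embryogenesis abundant proteins, so it is not a measure of the storage proteins. Lea5-D rose in ABA, mannitol and pH and Lea14-A in ABA. Of the 4 storage protein probe sets, the LEGB probe set GhiAffx.3197.1.A1_at rose in ABA, mannitol and pH, and the other 3, for vicB_At, LegA and LEGB, had condition means between -1.79 and 2.42, well below the median of all probe sets, and gave no call. No seed probe set was called in cold or NaCl. The median difference of the 6 in pH was -0.36. The summed signal of 4 fiber probe sets was 4790 to 5275 in control, and lay below every control array in ABA (2429 to 2917), pH (2100 to 2489) and mannitol (3815 to 4663). It was 3973 to 4852 in cold and 4083 to 7716 in NaCl. Of the 4, 1 fell in each of ABA, mannitol and pH. No green tissue or root marker was matched by name, so the seedling tissue was not checked by such markers. The part of seed and fiber transcripts in the expansin results was not tested.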

How the data were processed

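Each of the 17 samples was hybridized to an Affymetrix Cotton Genome Array. The authors deposited MAS5 intensities, which are linear. They covered 24132 probe sets, from which 103 controls were removed. The log2 signals were quantile normalized and fitted with limma 3.58.1 (lmFit and eBayes) in R 4.3.3, with 1 coefficient per condition, two-sided tests and Benjamini-Hochberg adjustment over 24029 probe sets. The small number of arrays limits precision. Gene names came from the platform annotation and RefSeq, which matched all 5 members.

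The members, lists, normalization and tests were chosen with earlier results of these data known. Named transcripts were the members, the other expansins, up to 5 transcripts most correlated with each member, and up to 2 from each list by smallest adjusted p. Lists covered xyloglucan and pectin enzymes, cellulose synthases, endoglucanases, fasciclin-like proteins, aquaporins, actins, tubulins, gibberellin and auxin genes, and seed and fiber markers; extensins, green tissue and root matched none. Same-numbered arrays of different conditions did not deviate together (mean r 0.00792 over 40 pairs). Alternatives were SAM, unadjusted p, no rescaling, median centring, 2% trimmed mean scaling, an added offset of 32, removal of the lowest 25% of signals, smaller fits, a variance trend, a replicate block and leaving out arrays. The code was tested on simulated data. Figures were drawn with matplotlib 3.10.9.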

Additional observations from a re-analysis of the deposited data

How the results depend on the processing

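When any single array was left out, the count of called alpha-expansin probe sets was 3 to 3 for cold and 2 to 3 for pH. It ranged over 0 to 2 for ABA, 1 to 2 for mannitol and 0 to 1 for NaCl. In what follows, brackets give the number of all probe sets called in the same comparison and setting. The count was 0 in ABA without control replicate 2 (4238) or ABA replicate 2 (3646). It was 1 in NaCl without NaCl replicate 2 (1011). SAM gave 2 in ABA (8395) and 4 in mannitol (8567). An unadjusted p gave 2 in ABA (6773), 3 in mannitol (6829) and 2 in NaCl (2026). An offset of 32 gave 1 in NaCl (214), and leaving out the lowest 25% of signals gave 2 in mannitol (5106). A fit to the 2 compared groups gave 2 in ABA (6617) and 3 in mannitol (7080). A fit to the arrays of control, NaCl and cold gave 0 in cold, where it called 2 of all probe sets. Leaving out NaCl replicates 1 and 2 and cold replicate 3 was added after seeing the data. It gave 2 in ABA (7105), 2 in mannitol (7127) and 1 in NaCl (590). With the replicate block, the counts stayed at 3 in cold (2493) and in pH (5164). They stayed at 1 in ABA (5288) and in mannitol (5429) and at 0 in NaCl (93). The cause of these shifts was not tested.

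Without rescaling, the median of all probe sets moved to 2.19 in mannitol, 2.11 in pH and 2.09 in ABA. The counts became 2 in ABA, 0 in mannitol and 1 in pH. Of all 24029 probe sets, 14663 were then called in ABA, 15962 in mannitol and 13113 in pH. In ABA, Ghi.704.1.A1_s_at (1.59) and Ghi.704.1.S1_at (1.63) turned above control, and in mannitol Ghi.704.1.S1_at (0.62). In pH the probe set called was GhiAffx.26845.1.S1_at, at 2.49, and the others called in the normalized values were -0.46, -0.46 and -0.73. Relative to the median of all probe sets, these differences kept the direction given above. Median centring and trimmed mean scaling each ended calls that are named beside their results. Of 705 alternative values against control, 654 kept their side of the threshold, although 12 of these, none called, changed sign. A call was lost in 21 and gained in 27, and 3 reversed. Of 1080 between stresses, 976 kept their side, of which 24 without a call changed sign, 52 lost a call and 52 gained one. EXPA1/EXPA2 lay near the floor of the signal, which limits its fold changes. GhiAffx.26845.1.S1_at read low in cold, at 3.17 to 4.68, which limits its fold changes against cold.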
